A study of Mus musculus with 6 samples.

Results

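The transcription factors that establish and maintain endothelial identity were followed in sorted retinal vascular endothelial cells (VECs) of Bmal1;CKO and control mice. They were 10 genes taken by name from the deposited table of 55487 genes: the ETS factors Erg and Fli1, the SOXF factors Sox7, Sox17 and Sox18, Tal1 and Gata2, the Kruppel-like factors Klf2 and Klf4, and the forkhead factor Foxo1. Each name was on a single row, and all 10 passed the filter on reads.

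Cells positive for both GFP and tdTomato were sorted at postnatal day 7.5 from the retinas of 6 animals. The 3 controls had the genotype tdTomato FL/+;Pdgf-icreER. The 3 mutants, called Bmal1;CKO, carried Bmal1 FL/FL in addition to tdTomato FL/+;Pdgf-icreER. Both groups carried the Cre transgene, which also expresses GFP, and the tdTomato reporter. Tamoxifen was given to both from postnatal day 0.5 to 2.5, so that the floxed Bmal1 alleles were the stated difference between them. Deletion was driven by Pdgf-icreER and was limited to the cells in which this transgene was active. The libraries keep the running numbers of the table, where 1 to 3 are control libraries and 4 to 6 are Bmal1;CKO libraries. These numbers could not be tied to single samples of the series.

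Endothelial cells have no single master regulator. ETS factors bind the enhancers of nearly every endothelial gene and work together with SOXF, GATA and bHLH factors such as TAL1 to hold the programme in place. KLF2 and KLF4 are switched on by blood flow and make vessels quiescent, whereas FOXO1 slows endothelial growth when growth factor signalling is low. Several of these genes are not restricted to vessels: FLI1, TAL1 and GATA2 also act in blood cells, and KLF2, KLF4 and FOXO1 are expressed in many cell types, myeloid cells among them.

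The values are normalized counts, that is reads per gene divided by the size factor of the library. Reads on genes numbered 71145068 to 104017800 per library, and the smallest number of reads on a member in any library was 289. The test was limma-trend, run on log2(normalized count + 1) of 20459 genes, with p adjusted over all of them and a false discovery rate (FDR) of 0.05 as the threshold. All fold changes are on that scale, Bmal1;CKO against control. Single values were also compared with a two-sided exact permutation test, which cannot give less than p = 0.1 for 3 libraries against 3. Arntl, the gene of BMAL1, had 1700 to 3489 normalized counts in control and 1779 to 2747 in Bmal1;CKO. Its log2 fold change was -0.19 (SE 0.36, adjusted p = 0.924 by limma-trend), and the groups overlapped. That value sums the whole gene and does not show the floxed part alone. By ddPCR on sorted endothelial cells of these genotypes, the authors reported significantly less Bmal1 transcript in the mutant.

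Control library 1 stood apart from the others. It held the highest value of 9 of the 10 members. Over all tested genes it held, alone or tied with another library, the highest value of 26.9% and the lowest of 36.4%. Results that rest on it are therefore also given without it. All 14 endothelial markers, among them Cdh5, Pecam1 and Cldn5, had reads in every library, and their summed level was 214527 to 444285 normalized counts in control and 131804 to 279717 in Bmal1;CKO. All 14 had negative fold changes (median -0.45 on the log2 scale, -0.12 without control library 1), and the lowest sum was in Bmal1;CKO library 5. All 9 markers of microglia and macrophages, among them C1qa and Cx3cr1, had reads in every library as well, with sums of 1425457 to 4231905 in control and 2090456 to 4158673 in Bmal1;CKO. These 9 had positive fold changes (median 0.41, and 0.91 without control library 1). The 10 immediate early genes, which include Fos and Jun, summed to 338028 to 965512 in control and 791696 to 1219021 in Bmal1;CKO. For 7 pericyte markers the sums were 2637 to 46180 in control and 4185 to 7643 in Bmal1;CKO, with Abcc9 at 0 in control library 1. Of these 7, 4 had positive fold changes (median 0.59), but none had without control library 1 (median -1.61) or with edgeR and TMM scaling (median -1.6). The 5 erythroid markers tested had a median log2 fold change of -1.0, and -2.02 without control library 1, and their part in the values of Fli1, Tal1 and Gata2 was not tested. Sums were 380698 to 435149 and 255328 to 483589 for 8 rod markers, 1 of them with a positive fold change. Cnga1, a rod channel subunit, had groups that did not overlap and a log2 fold change of -1.37 (SE 0.46, adjusted p = 0.883 by limma-trend). Sums were 58687 to 78065 and 56033 to 78842 for 5 markers of Müller glia, of which Aqp4 was at 0 in some libraries and 3 of the 4 tested had positive fold changes. Of the 14 endothelial markers, 0 reached FDR < 0.05 by limma-trend, as did 0% of all tested genes. Their groups overlapped for all 14, whereas 11.2% of all genes had groups that did not. In such bulk samples, a difference in the number of endothelial cells and a difference in RNA per cell cannot be told apart.

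The stretches before the start sites are shown for Klf2 and Klf4, which varied together across the libraries, and for Erg, which had the largest fold change in size. BMAL1 and CLOCK bind the E-box CACGTG, which reads the same on both strands, and capitals mark it. Each line is the 250 bases before a RefSeq start site on GRCm38.p6, read 5′ to 3′ on the strand of the gene: chr8:72318812-72319061 (forward) for Klf2, chr4:55532476-55532725 (reverse) for Klf4 and chr16:95586594-95586843 (reverse) for the most distal start of Erg.
Klf2: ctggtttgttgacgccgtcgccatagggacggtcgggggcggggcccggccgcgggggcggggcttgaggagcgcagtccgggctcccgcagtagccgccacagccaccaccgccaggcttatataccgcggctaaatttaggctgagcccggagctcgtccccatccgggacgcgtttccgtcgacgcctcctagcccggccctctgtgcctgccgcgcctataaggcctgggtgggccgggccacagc
Klf4: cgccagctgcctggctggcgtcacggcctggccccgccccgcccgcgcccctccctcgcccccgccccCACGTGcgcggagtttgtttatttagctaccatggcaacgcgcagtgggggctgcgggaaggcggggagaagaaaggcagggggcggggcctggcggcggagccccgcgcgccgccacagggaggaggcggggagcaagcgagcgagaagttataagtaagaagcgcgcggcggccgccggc
Erg: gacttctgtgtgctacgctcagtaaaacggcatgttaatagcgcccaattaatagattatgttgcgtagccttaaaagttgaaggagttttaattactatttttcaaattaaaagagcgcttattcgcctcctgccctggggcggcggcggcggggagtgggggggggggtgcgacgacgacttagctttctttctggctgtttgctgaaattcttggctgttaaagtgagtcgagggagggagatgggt
RefSeq start sites were matched for 6 of the members (Erg, Tal1, Gata2, Klf2, Klf4 and Foxo1), with 10 windows in all. The E-box was found in 1 of these 10, that of Klf4, where it begins at position -182, with -1 the base before the start. Over all 32851 windows of this length, 6.02% held it. A match of letters is a description of the sequence and does not show binding.

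Per kilobase of merged exons, the factors spanned a wide range of levels. These are levels of the whole sample, in which microglial markers also had reads, and the part of microglial RNA in the order was not tested. Klf2, with a median of 15858 normalized counts per kilobase over the 6 libraries (range 5129 to 25719), and Sox18, with 9865 (4041 to 15152), were the most abundant. Sox18 lay above the third, Fli1, in every library without overlap of the ranges, the only neighbours in the order for which this held. Fli1 (1341, range 1062 to 1750), Sox17 (1136), Klf4 (848) and Foxo1 (535) formed the middle. Erg (207), Sox7 (202), Tal1 (150.5) and Gata2 (114) were the lowest. All other neighbours in the order, Klf2 and Sox18 included, did not differ beyond their spread over the libraries. Fli1 was the steadiest factor within control, with its highest library 1.48-fold above its lowest within control and 1.44-fold within Bmal1;CKO. Within Bmal1;CKO, Klf4 had the smallest such ratio, 1.28.

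**Figure D1:**
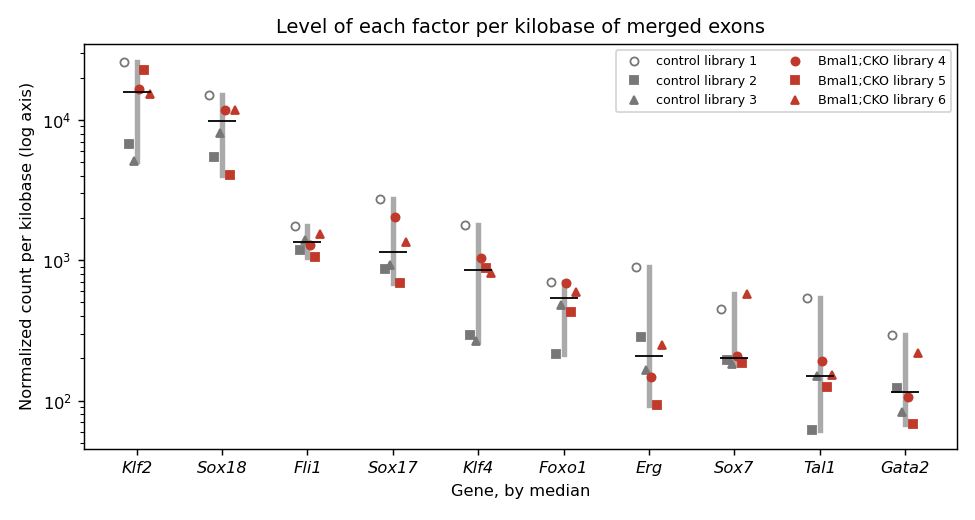
Normalized counts per kilobase of merged exons (log axis) for the 10 factors, ordered by the median over 6 libraries. Points are single libraries (grey control, red Bmal1;CKO, open circle control library 1), grey bars the range and black dashes the median. Klf2 and Sox18 have medians of 15858 and 9865, and the other medians lie between 114 and 1341.

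No member passed the test. By limma-trend 0 of 10 reached FDR < 0.05, where 0% of all tested genes did, and 0 of 10 had an unadjusted p under 0.05, where 4.92% of all genes did (3.17% higher and 1.75% lower in Bmal1;CKO). edgeR and limma-voom likewise gave 0 members at that FDR and 0 at an unadjusted p under 0.05, and DESeq2 gave 0 and 1 (Erg, unadjusted p = 0.0343, adjusted p = 0.753 by DESeq2), where 0.327% and 5.92% of all genes passed. The groups overlapped for all 10 members, whereas 11.2% of all tested genes had groups that did not overlap, 6.62% with Bmal1;CKO higher and 4.54% with it lower. Fold changes were positive for 4 members (Klf2, Klf4, Foxo1 and Sox7) and negative for 6, with a median of -0.08 beside 0.11 over all tested genes. The members' median was 0.52 without control library 1 and 0.39 without Bmal1;CKO library 5, so its sign rested on single libraries. Over all tested genes the median at these settings was 0.0016 and 0.095.

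**Figure D2:**
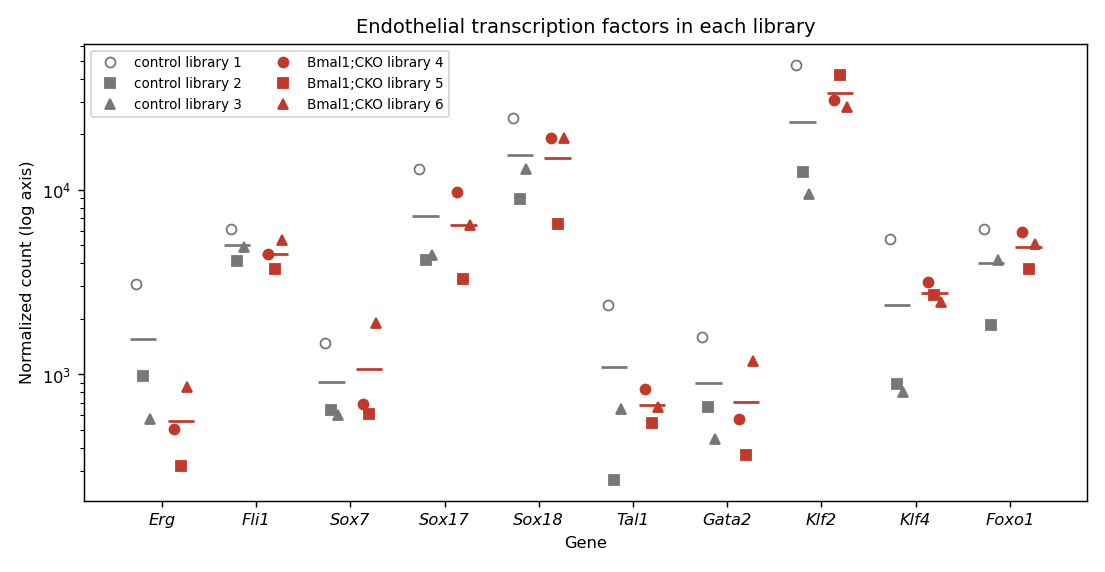
Normalized counts (log axis) of the 10 factors in each library, grey for control and red for Bmal1;CKO, with lines at the group means. Control library 1 (open circle) is the highest point of every factor but Sox7, and the groups overlap for all 10.

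ERG is the ETS factor that keeps endothelial junction genes such as Cdh5 and Cldn5 active. Erg (ENSMUSG00000040732, chromosome 16 of GRCm38, 95359169 to 95586593, reverse strand) had 3088, 986 and 575 normalized counts in control libraries 1 to 3 and 506, 320 and 857 in Bmal1;CKO libraries 4 to 6. Control library 1 was far above the rest, and Bmal1;CKO library 6 lay between control libraries 2 and 3. The group means were 1550 ± 1348 and 561 ± 273 (SD, n = 3 each), with a log2 fold change of -1.22 (SE 0.69, 95% interval -2.81 to 0.38, adjusted p = 0.883 by limma-trend, exact permutation p = 0.2). The direction was negative under every alternative test, scaling and left-out library, reaching -1.75 with control library 3 left out and -0.54 with control library 1 left out. All Bmal1;CKO libraries lay below the controls only when control library 3 or Bmal1;CKO library 6 was left out, as did 14% and 7.96% of all genes tested.

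Fli1, the close ETS relative of Erg (ENSMUSG00000016087, chromosome 9, 32422204 to 32542861, reverse strand), moved little. It had 6100, 4123 and 4869 normalized counts in control and 4480, 3703 and 5350 in Bmal1;CKO, so that the libraries of the groups were interleaved. The means were 5031 ± 999 and 4511 ± 824 (SD, n = 3 each). The log2 fold change was -0.15 (SE 0.27, 95% interval -0.78 to 0.47, adjusted p = 0.913 by limma-trend). This was the narrowest interval among the members. Within a library, the ratio of Fli1 to Erg per kilobase was 1.96, 4.16 and 8.42 in control and 8.80, 11.5 and 6.21 in Bmal1;CKO. The ratio was lowest in control libraries 1 and 2, and the groups overlapped (difference of 1.06 on the log2 scale, exact permutation p = 0.2, 0.8 adjusted over the 4 ratios compared here).

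The SOXF factors Sox7, Sox17 and Sox18 act redundantly in vessel formation, and SOX17 is known for arterial fate. Sox18 (ENSMUSG00000046470, chromosome 2, 181669836 to 181671640, reverse strand) had 24546, 8886 and 13008 normalized counts in control and 19070, 6546 and 18954 in Bmal1;CKO. Sox17 (ENSMUSG00000025902, chromosome 1, 4490931 to 4497354, reverse strand) had 12977, 4165 and 4423 in control and 9683, 3285 and 6422 in Bmal1;CKO. For both genes the lowest library was Bmal1;CKO library 5 and the highest control library 1, with Bmal1;CKO library 4 next. Sox7 (ENSMUSG00000063060, chromosome 14, 63943673 to 63950732, forward strand) had 1472, 639 and 603 in control and 691, 612 and 1910 in Bmal1;CKO. It was the only member whose highest library was a Bmal1;CKO library, library 6.

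The fold changes of the SOXF factors were near 0 with wide intervals. On the log2 scale they were -0.09 for Sox18 (SE 0.52, 95% interval -1.31 to 1.13), -0.08 for Sox17 (SE 0.55, -1.35 to 1.20) and 0.17 for Sox7 (SE 0.58, -1.18 to 1.52), with adjusted p of 0.979, 0.984 and 0.958 by limma-trend. These intervals include a change of 2-fold in either direction. Without control library 1 they were 0.31, 0.46 and 0.58. With edgeR and TMM scaling, Sox17 had -0.16 and Sox7 0.26. Leaving out single libraries ran from -0.42 to 0.43 for Sox18, from -0.43 to 0.46 for Sox17 and from -0.35 to 0.58 for Sox7. The ratio of Sox18 to Sox17 was steadier than their levels: Sox18 exceeded Sox17 per kilobase by 5.57-, 6.29- and 8.66-fold in control and by 5.80-, 5.87- and 8.69-fold in Bmal1;CKO (log2 difference -0.01, exact permutation p = 1). The ratio of Sox18 to Sox7 was 28.3 to 43.9 in control and 20.2 to 56.2 in Bmal1;CKO (log2 difference -0.26, exact permutation p = 0.6). Both ratios had an adjusted p of 1.

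TAL1, a bHLH factor, and GATA2, a zinc finger factor, sit together in complexes that open blood and endothelial enhancers. Tal1 (ENSMUSG00000028717, chromosome 4, 115056426 to 115071755, forward strand) had 2365, 268 and 652 normalized counts in control and 838, 547 and 666 in Bmal1;CKO. The controls held both its highest and its lowest library, 8.82-fold apart, whereas the Bmal1;CKO libraries lay within 1.53-fold. Its log2 fold change was -0.15 (SE 0.76, 95% interval -1.91 to 1.62, adjusted p = 0.976 by limma-trend). It was 0.68 without control library 1 and -0.68 with edgeR and TMM scaling. Gata2 (ENSMUSG00000015053, chromosome 6, 88193891 to 88207032, forward strand) had 1586, 664 and 447 in control and 571, 366 and 1185 in Bmal1;CKO. Control library 1 and Bmal1;CKO library 6 were its highest. The log2 fold change of Gata2 was -0.31 (SE 0.64, 95% interval -1.79 to 1.17, adjusted p = 0.929 by limma-trend), and 0.21 without control library 1.

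The flow-responsive factors Klf2 and Klf4 had the largest positive fold changes, and their libraries fell in nearly the same order. Klf2 (ENSMUSG00000055148, chromosome 8, 72319033 to 72321656, forward strand) had 47503, 12436 and 9474 normalized counts in control and 30441, 41842 and 28138 in Bmal1;CKO. Klf4 (ENSMUSG00000003032, chromosome 4, 55527143 to 55532466, reverse strand) had 5395, 888 and 805 in control and 3148, 2701 and 2468 in Bmal1;CKO. For both, all 3 Bmal1;CKO libraries lay above control libraries 2 and 3 and below control library 1. Means were 23137 ± 21153 and 33474 ± 7338 for Klf2, and 2363 ± 2627 and 2772 ± 345 for Klf4 (SD, n = 3 each).

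With all libraries, the log2 fold change was 0.89 for Klf2 (SE 0.58, 95% interval -0.45 to 2.23) and 0.81 for Klf4 (SE 0.70, -0.80 to 2.43), with an adjusted p of 0.883 for each by limma-trend and an exact permutation p of 0.4. Without control library 1 it was 1.60 for Klf2 (adjusted p = 0.271 by limma-trend) and 1.71 for Klf4 (adjusted p = 0.259), neither of which passed the FDR, as 0.0293% of all genes did. Both had an unadjusted p under 0.05, where 8.65% of all genes did and 4.88% did with Bmal1;CKO higher. These 2 were then the members whose groups did not overlap, where 25.7% of all tested genes had such groups and 12.9% had them with Bmal1;CKO higher. Every alternative left both fold changes positive, with 0.44 for Klf2 and 0.33 for Klf4 without control library 3, and 0.54 and 0.24 with edgeR and TMM scaling. Klf2 exceeded Klf4 per kilobase by 14.5- to 23.1-fold in control and by 16.0- to 25.6-fold in Bmal1;CKO, a log2 difference of 0.08 (exact permutation p = 0.8, adjusted p = 1). The immediate early genes also had positive fold changes, all 10 of them (median 1.14), and 0 reached FDR < 0.05 by limma-trend. Of these 10, 5 had an unadjusted p under 0.05 and higher values in Bmal1;CKO, as did 3.17% of all genes. For 4 (Nr4a1, Egr1, Dusp1 and Jun) the groups did not overlap, as for 6.62% of all genes with Bmal1;CKO higher. The part of such a response in the values of Klf2 and Klf4 was not tested.

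Foxo1 (ENSMUSG00000044167, chromosome 3, 52268336 to 52353221, forward strand), the forkhead factor restrained by AKT, had 6094, 1851 and 4162 normalized counts in control and 5921, 3700 and 5116 in Bmal1;CKO. Control library 2 was lowest by a wide margin, and the controls held both extremes. Means were 4036 ± 2124 and 4912 ± 1124 (SD, n = 3 each). The log2 fold change was 0.42 (SE 0.45, 95% interval -0.63 to 1.47, adjusted p = 0.886 by limma-trend). Without control library 2 it was -0.063 and without control library 1 0.80. Exons of Foxo1 and Sox17 share 674 and 804 bases with genes on the opposite strand, Gm20402 and Gm37587. Neither of these had more than 1 read in a library. The libraries do not mark strand, so reads in the shared bases could not be assigned to a gene by strand. How the counting treated such reads is not given in the sources used here.

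**Figure D3:**
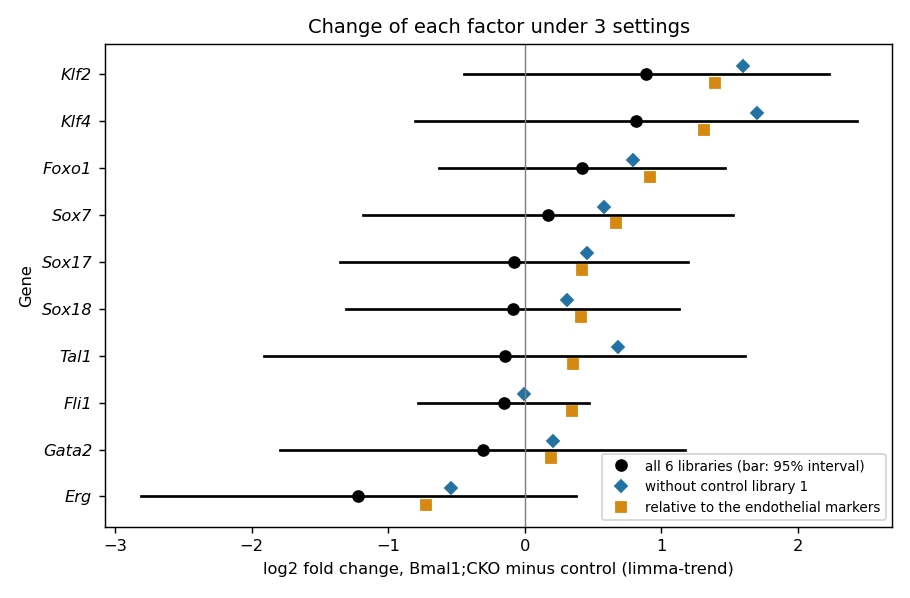
log2 fold change of each factor, Bmal1;CKO minus control, by limma-trend with all 6 libraries (black, bar 95% interval), without control library 1 (blue) and relative to the mean of the endothelial markers (orange). All 10 intervals include 0. Klf2 and Klf4 lie to the right under all 3 settings and Erg to the left.

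Levels of the factors were next set against the mean log2 value of the 14 endothelial markers in each library. These markers include Cdh5 and Cldn5, which ERG keeps active, and Kdr, which KLF2 represses. The scale is therefore not independent of the members and does not measure endothelial cell content alone. On this scale the median over all tested genes moved from 0.11 to 0.60, against which the members' median of 0.42 is to be read. Members above that 0.60 were Klf2 (1.39, SE 0.63), Klf4 (1.31, SE 0.68), Foxo1 (0.92) and Sox7 (0.67). Sox17 (0.42), Sox18 (0.41), Tal1 (0.35), Fli1 (0.34) and Gata2 (0.19) lay below it, and Erg alone stayed negative (-0.72, SE 0.72). Klf2 had the smallest p (unadjusted p = 0.0428, adjusted p = 0.860 by limma-trend) and was the 1 member under 0.05, where 3.92% of all genes were. None of the 10 reached the FDR by limma-trend, as 0.00489% of all genes did. The groups overlapped for all 10 on this scale too, where 7.34% of all genes did not overlap and 6.81% did not with Bmal1;CKO higher. Relative to the markers, Erg stood at -2.44, -3.27 and -4.00 on the log2 scale in control and at -4.12, -3.92 and -3.83 in Bmal1;CKO. Its Bmal1;CKO libraries were thus alike on this scale, and control library 3 fell among them.

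The pattern of each factor over the 6 libraries was compared with that of the marker lists, by the root mean square difference of log2 values centred on their mean, with no test. Erg (0.58), Fli1 (0.33), Sox7 (0.47), Sox17 (0.45), Sox18 (0.35) and Gata2 (0.34) were closest to the endothelial markers among 3 lists. Foxo1 (0.26) and Tal1 (0.61) were closest to the microglial markers, and Klf2 (0.39) and Klf4 (0.57) to the immediate early genes. For some the next list was almost as close: the microglial markers for Klf4 (0.63), Sox17 (0.51) and Fli1 (0.42). Tal1 was at 0.76 from the endothelial markers. Between the lists themselves the measure was 0.65 for endothelial and microglial markers, 0.57 for microglial markers and immediate early genes, and 1.01 for endothelial markers and immediate early genes. Erg, Tal1 and Klf4 were thus no closer to their list than the microglial markers were to the immediate early genes. All share the 6 libraries and their size factors. The part of microglial RNA in the values of Foxo1, Tal1, Fli1, Klf2 and Klf4 was not tested.

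**Figure D4:**
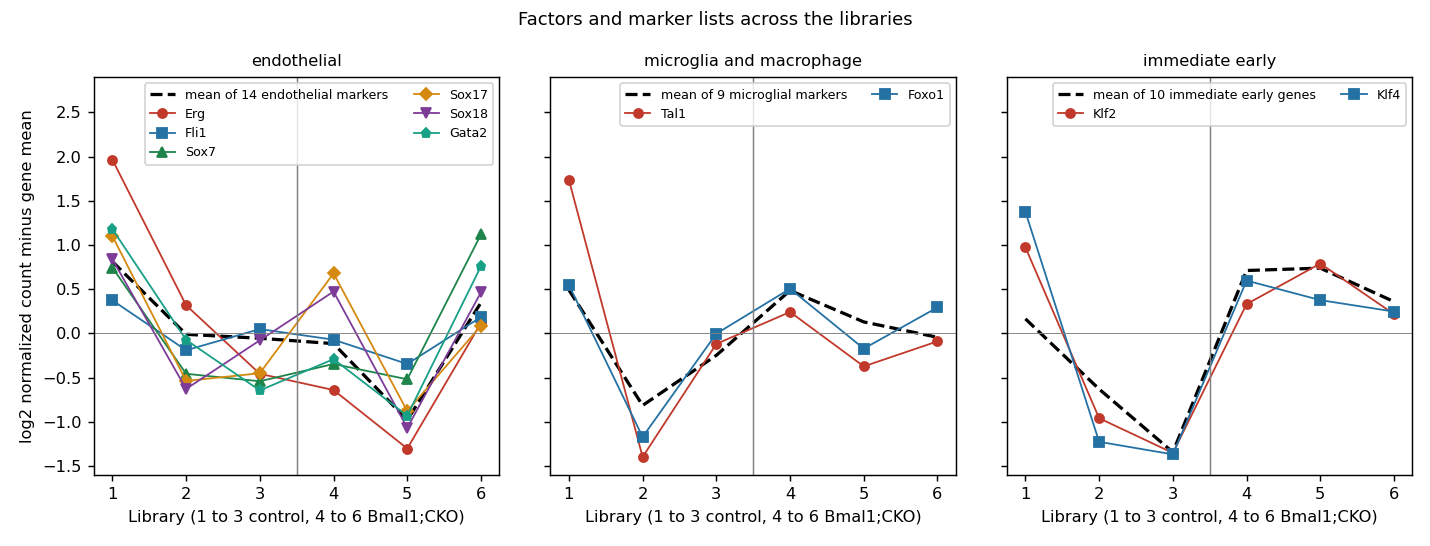
log2 normalized count of each factor minus its mean over the 6 libraries, with the mean of the marker list to which it was closest (dashed). Libraries 1 to 3 are control and 4 to 6 Bmal1;CKO, and lines only join the points of a gene. Klf2 and Klf4 are low in libraries 2 and 3 with the immediate early genes, and the endothelial markers and most factors beside them are lowest in library 5.

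By the same measure, the genes most like Erg, Sox17, Klf2 and Foxo1 were sought among 15609 others with a mean of at least 100 normalized counts. For Erg they were Gimap8 (0.14), Gm47962 (0.17) and Ctnnd1 (0.21), which encodes p120-catenin of the adherens junction. For Sox17 they were Slc9a3r2 (0.15), Pir (0.17) and Mybl2 (0.17). For Klf2 they were Hyal1 (0.20), Jund (0.21), an AP-1 subunit, and Akr1b10 (0.22), and for Foxo1 Riox1 (0.09), Glmp (0.10) and Ppfia4 (0.10). These matches are a description over 6 libraries of the same experiment.

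Partners and relatives of the members were read from a list of 32 other endothelial transcription factors, of which 31 were tested and Gata6 was below the filter. Of these, 18 had positive and 13 negative fold changes, with a median of 0.06 (-0.13 with edgeR and TMM scaling) beside 0.11 over all genes. Without control library 1, the median was 0.24 beside 0.0016 over all genes, and 21 fold changes were positive. At that setting 4 genes had an unadjusted p under 0.05 by limma-trend. All 4 were higher in Bmal1;CKO, as were 4.88% of all genes at that p. By limma-trend 0 reached FDR < 0.05, as with edgeR, limma-voom and DESeq2, and 1 had an unadjusted p under 0.05. It was higher in Bmal1;CKO, as were 3.17% of all tested genes at that p. This was Klf6, a Kruppel-like factor induced by injury, with 17099, 6899 and 9473 normalized counts in control and 19956, 25335 and 18809 in Bmal1;CKO. All its Bmal1;CKO libraries lay above the controls, as did those of 6.62% of all genes. Its log2 fold change was 1.03 (SE 0.36, unadjusted p = 0.0216, adjusted p = 0.883 by limma-trend), between 0.74 and 1.39 with 1 library left out.

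Partners of TAL1 and relatives of the members from this list did not pass the test. Lmo2 and Ldb1, which bridge TAL1 and GATA factors, had log2 fold changes of 0.02 (SE 0.29) and 0.42 (SE 0.28), and Lyl1, the close relative of TAL1, 0.47 (SE 0.70), or 1.31 without control library 1. Ets1, a further ETS factor of vessels, had -0.25 (SE 0.42) and Foxo3, the relative of FOXO1, 0.13 (SE 0.31). Adjusted p was 0.883 to 0.990 for these 5 by limma-trend. They were chosen after their values were seen.

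Downstream of FOXO1, 14 of 15 known target genes were tested, with Pdk4 below the filter. The fold changes of 9 were positive and of 5 negative (median 0.31), 0 reached FDR < 0.05 by any of the tests, and 1 had an unadjusted p under 0.05 by limma-trend, with 3.17% of all genes at that p and higher in Bmal1;CKO. For 2 the groups did not overlap, with 6.62% of all genes so and higher. Without control library 1 the median was 0.16, beside 0.0016 over all genes. At that setting 3 had such a p, all higher in Bmal1;CKO, where 4.88% of all genes had it and were higher. Irs2, the insulin receptor substrate that FOXO1 is known to activate, had 4533, 3475 and 3868 normalized counts in control and 11191, 11851 and 6242 in Bmal1;CKO. The groups were well apart, with a log2 fold change of 1.25 (SE 0.31, unadjusted p = 0.00406, adjusted p = 0.857 by limma-trend) that ran from 1.09 to 1.55 with 1 library left out. Bcl2l11, the other target of this list whose groups did not overlap, had a log2 fold change of 0.63 (SE 0.34, adjusted p = 0.883 by limma-trend).

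Among 12 known targets of KLF2 and KLF4, all tested, 7 had positive and 5 negative fold changes, with a median of 0.21 that was -0.10 without control library 1. Edn1, Vcam1, Ccn2 and Kdr in this list are known as repressed targets, and the others as activated ones. The count and the median therefore mix opposite expected directions and do not show whether the targets followed Klf2 and Klf4. By limma-trend 0 reached FDR < 0.05, as with the other tests, and 1 had an unadjusted p under 0.05, beside 3.17% of all genes with higher values in Bmal1;CKO. That count was 0 without control library 1, where 8.65% of all genes had such a p. The groups did not overlap for 2, beside 6.62% of all genes with higher values. Dusp5, a phosphatase of ERK, had 2226, 2750 and 2175 normalized counts in control and 3560, 3765 and 3706 in Bmal1;CKO. Its log2 fold change was 0.63 (SE 0.24, unadjusted p = 0.0333, adjusted p = 0.883 by limma-trend). Its Bmal1;CKO libraries were alike and all above the controls. Nqo1, with 0 reads in control library 1, was the other gene whose groups did not overlap. Bcl2l11 and Nqo1 were named after their values were seen. Nos3 and Thbd, targets that KLF2 is best known to activate, had log2 fold changes of -0.41 (SE 0.40) and 0.08 (SE 0.85), and Kdr, which KLF2 represses and which is also among the endothelial markers, -0.74 (SE 0.37). The adjusted p of these was 0.884, 0.989 and 0.883 by limma-trend, and they were chosen after their values were seen.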

How the data were processed

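The authors amplified RNA with a Smart v4 kit and made Nextera XT libraries, which do not mark strand. They used FastQC and Trimmomatic on the reads, Bowtie for alignment to mm10 (GRCm38), featureCounts for counting and DESeq2. The deposited signal is a gene's reads after division by a size factor per library. Dividing each column by its smallest step gave whole reads for 100% of values (tolerance 0.05). The authors' own comparison (log2 fold change, Wald score, p-value, mean signal) was not used. Columns name the genotype only and were used as replicates of their group. File starts were 1 below those of GENCODE M21, which gave coordinates and merged exon lengths.

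Genes that had 10 or more reads in 3 or more libraries were tested with limma-trend on log2(normalized count + 1), genotype as the only term (R 4.3.3, limma 3.58.1). Alternatives on the recovered reads were edgeR 4.0.16 with TMM scaling or the size factors, limma-voom and DESeq2 1.42.0. Pseudocounts of 0.5 and 10, a looser and a stricter filter, scaling to 14 endothelial markers and leaving out each library were also tried. Scaling for the counts of called genes was added after seeing the data. Fits were tested on simulated data. Members and gene lists were chosen with earlier results of these data known. Named genes were the members, markers that identify a list, and list genes with unadjusted p under 0.05 and groups that did not overlap. Also named were the 3 genes most like Erg, Sox17, Klf2 and Foxo1, the repressed targets of KLF2 and KLF4, and those stated as chosen later. Intervals cover the spread between libraries only. Since the libraries were amplified without molecular identifiers, reads are not independent molecules. Figures were made with Python 3.11.15 and matplotlib 3.10.9. Summed levels of blood cell markers are not reported here.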

Additional observations from a re-analysis of the deposited data

How the results depend on the processing

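Under all 15 alternatives, 0 members and 0 genes of the 3 related lists reached FDR < 0.05. Over all tested genes the count of 0 by limma-trend (1007 at an unadjusted p under 0.05) was 0 with edgeR (777) and became 67 with DESeq2, 1 when 1 read in total sufficed, 1 when 10 reads were required of each library and 1 relative to the endothelial markers. With 1 library left out it was 0 to 6, with 6 without control library 1. Members whose groups did not overlap numbered 0 to 2 with 1 library left out. Klf2 and Klf4 had such groups without control library 1, as had 25.7% of all genes, 12.9% with Bmal1;CKO higher. Erg had them, with Bmal1;CKO lower, without control library 3 or Bmal1;CKO library 6, as had 14% and 7.96% of all genes. The median fold change of the members was lowest at -0.33, with control library 2 left out (0.083 over all genes). It was highest at 0.52, with control library 1 left out (0.0016 over all genes). The cause was not tested. Relative to the endothelial markers, the sign turned for Fli1 (0.34), Sox17 (0.42), Sox18 (0.41), Tal1 (0.35) and Gata2 (0.19). That scale subtracts the mean log2 value of the 14 markers, all of which had negative fold changes (median -0.45). With 1 library left out, 6 members changed sign: Sox7 (-0.35 to 0.58), Sox17 (-0.43 to 0.46), Sox18 (-0.42 to 0.43), Tal1 (-0.88 to 0.68), Gata2 (-0.77 to 0.21) and Foxo1 (-0.063 without control library 2, up to 0.80). Erg, Fli1, Klf2 and Klf4 kept theirs. No paired analysis was possible because the columns of the table carry no replicate number of the labels.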
